A study of Homo sapiens with 12 samples.

Results

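Toll-like receptors and their partners were followed in U937 cells given all-trans retinoic acid (ATRA), with and without a vector for EVI1. The group holds 10 listed genes of the 19775 that the arrays read through a probe set of their own: the receptors TLR1, TLR2, TLR4, TLR5, TLR6 and TLR8, the co-receptors LY96 and CD14, the adaptor MYD88 and the lectin receptor CLEC7A. They were chosen by name, with earlier results of these data known. Of the 54675 probe sets (groups of short probes summarised into 1 level), 20 carry 1 of these symbols alone. U937 is an established line of human monocytic leukaemia cells. They carried an empty vector or an EVI1 expression vector and were kept for 24 h with 1 µM ATRA or with its solvent DMSO, which gives 4 groups of 3 arrays, named here by vector and agent (vector ATRA, for example). EVI1, encoded by MECOM, is a zinc finger transcription factor and a myeloid oncogene. Whether the transduced cells were clones or pools, and which promoter drove EVI1, is not given in the sources used here.

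Toll-like receptors sense microbial molecules on the surface of phagocytes or inside their endosomes. TLR4 binds lipopolysaccharide only together with the secreted protein MD-2, the product of LY96, and CD14 hands the lipid over to that pair. TLR2 recognises bacterial lipoproteins in pairs with TLR1 or TLR6, TLR5 recognises flagellin and TLR8 recognises single-stranded RNA. MYD88 couples most of these receptors to IRAK kinases and NF-κB, while CLEC7A encodes dectin-1, a receptor for fungal β-glucan that signals through SYK. Circulating monocytes are known for high CD14, TLR2, TLR4 and TLR8.

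Promoter sequences of 7 of the 10 genes were taken from RefSeq (GRCh38.p14), and those of TLR1, LY96 and CLEC7A were not examined. The sequences of TLR4, TLR5 and MYD88 are shown as the 250 bases before the annotated start, 5′ to 3′ on the gene's strand. TLR5 and MYD88 are shown because their transcripts rose with ATRA in EVI1 cells, and TLR4 because it encodes the receptor chain whose partner LY96 rose. Capitals mark matches, on either strand, to GAGGAA, the core bound by the myeloid factor PU.1, and to GGGCGG, the box bound by SP1. The TLR4 stretch lies at chr9:117704153-117704402, plus strand, the TLR5 stretch at chr1:223143249-223143498, minus strand, and the MYD88 stretch at chr3:38138411-38138660, plus strand.
TLR4: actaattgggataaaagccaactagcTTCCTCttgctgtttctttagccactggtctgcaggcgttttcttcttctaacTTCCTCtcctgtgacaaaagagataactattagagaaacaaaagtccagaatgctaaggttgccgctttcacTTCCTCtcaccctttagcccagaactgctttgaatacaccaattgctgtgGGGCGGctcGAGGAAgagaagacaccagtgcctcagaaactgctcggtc
TLR5: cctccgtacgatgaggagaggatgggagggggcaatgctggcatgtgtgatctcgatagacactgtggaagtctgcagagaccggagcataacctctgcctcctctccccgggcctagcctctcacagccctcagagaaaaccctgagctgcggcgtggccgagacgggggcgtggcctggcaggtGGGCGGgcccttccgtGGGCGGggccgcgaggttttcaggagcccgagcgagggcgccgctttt
MYD88: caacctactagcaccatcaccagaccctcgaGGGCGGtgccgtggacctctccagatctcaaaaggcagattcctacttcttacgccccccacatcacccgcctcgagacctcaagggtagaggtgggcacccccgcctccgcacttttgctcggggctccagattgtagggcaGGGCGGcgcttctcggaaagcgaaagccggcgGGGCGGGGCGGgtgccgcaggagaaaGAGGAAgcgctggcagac
TLR4 held 4 matches to GAGGAA and 1 to GGGCGG, TLR5 held 0 and 2, and MYD88 held 1 and 4, of which a pair overlaps. The motif AGGTCA of retinoic acid receptors and the motif GATAAG, part of a sequence bound by EVI1, were found in none of the 7 windows. LY96, which had the largest ATRA difference of the 10 genes, was not among these 7. Among the 27305 RefSeq promoters of the same length, 23.4% held GAGGAA, 42.3% GGGCGG, 12.1% AGGTCA and 5.65% GATAAG. The share of G and C was 46.4% in TLR4, 66.0% in TLR5 and 64.4% in MYD88. TLR2 (72.4%) was the richest of the 7 in G and C, and TLR8 (34.8%) and TLR6 (36.4%) were the poorest.

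All values are log2 signals on the scale of the deposited table, and a difference of 1 is a doubling. The medians of the 12 arrays lay between 5.29 and 5.35, their lower quartiles between 3.83 and 3.91, and arrays of the same group correlated with r from 0.987 to 0.995. A gene was tested where it reached 5 on at least 3 arrays, which 14080 genes did. That limit is no detection call, because 10 of 23 measured markers of other cell types also stood at 5 or more on all 12 arrays. Of 9 measured myeloid markers 8 did so, among them LYZ, PTPRC and ITGB2. MECOM was near the bottom of the range on every array (2.61 to 3.60 over 5 probe sets), so the arrays do not check the EVI1 label, and groups are named by their labels. Arrays of the same replicate number deviated together from their group means, so a fit with the number as a block is given beside each difference of the 10 genes whose call it changes; for the pathway genes it is given as counts, with values for some. On the first principal component the DMSO arrays numbered 3 lay at -15.9 and 1.83. The other DMSO arrays ran from -35.3 to -16.4 and the ATRA arrays from -3.91 to 53.6. The array at 1.83 thus lay within the ATRA range, and the one at -15.9 lay next to the other DMSO arrays.

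With ATRA, LY96, TLR5 and MYD88 rose in EVI1 cells, and no gene of the group fell. In vector cells the same 3 genes had positive differences that did not pass the test; LY96 and TLR5 passed with replicate numbers as a block, and MYD88 did not (blocked limma adjusted p = 0.282). On their main probe sets the ATRA differences of TLR2, TLR8, CD14 and CLEC7A lay between -0.25 and 0.08 in both cell types. Arrays of bulk cells cannot tell more RNA per cell from more cells that express a gene. Of the 10 genes 6 were tested, and TLR1, TLR8, CD14 and CLEC7A were under the signal limit. In EVI1 cells 3 of the 6 rose, where 7.45% of all tested genes rose and 15.1% were called in either direction. With the replicate block 4 rose, TLR6 being added, where 16.3% rose and 35.7% were called. The count was 1 without EVI1 DMSO array 1 or 2 or EVI1 ATRA array 2, 0 without EVI1 ATRA array 3, and 2 without both DMSO arrays of number 3. In vector cells limma called 0 of the 6 (2 at an unadjusted p under 0.05), where 3.52% of tested genes were called (2% higher and 1.52% lower), and 2 rose with the replicate block, where 9.96% of tested genes rose. LY96 and TLR5 passed the limit through their ATRA arrays, so the count over tested genes is only a description. Over all 10 genes the median ATRA difference was 0.06 in vector cells and 0.40 in EVI1 cells, against -0.0033 and -0.023 over all 19775 genes.

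**Figure D1:**
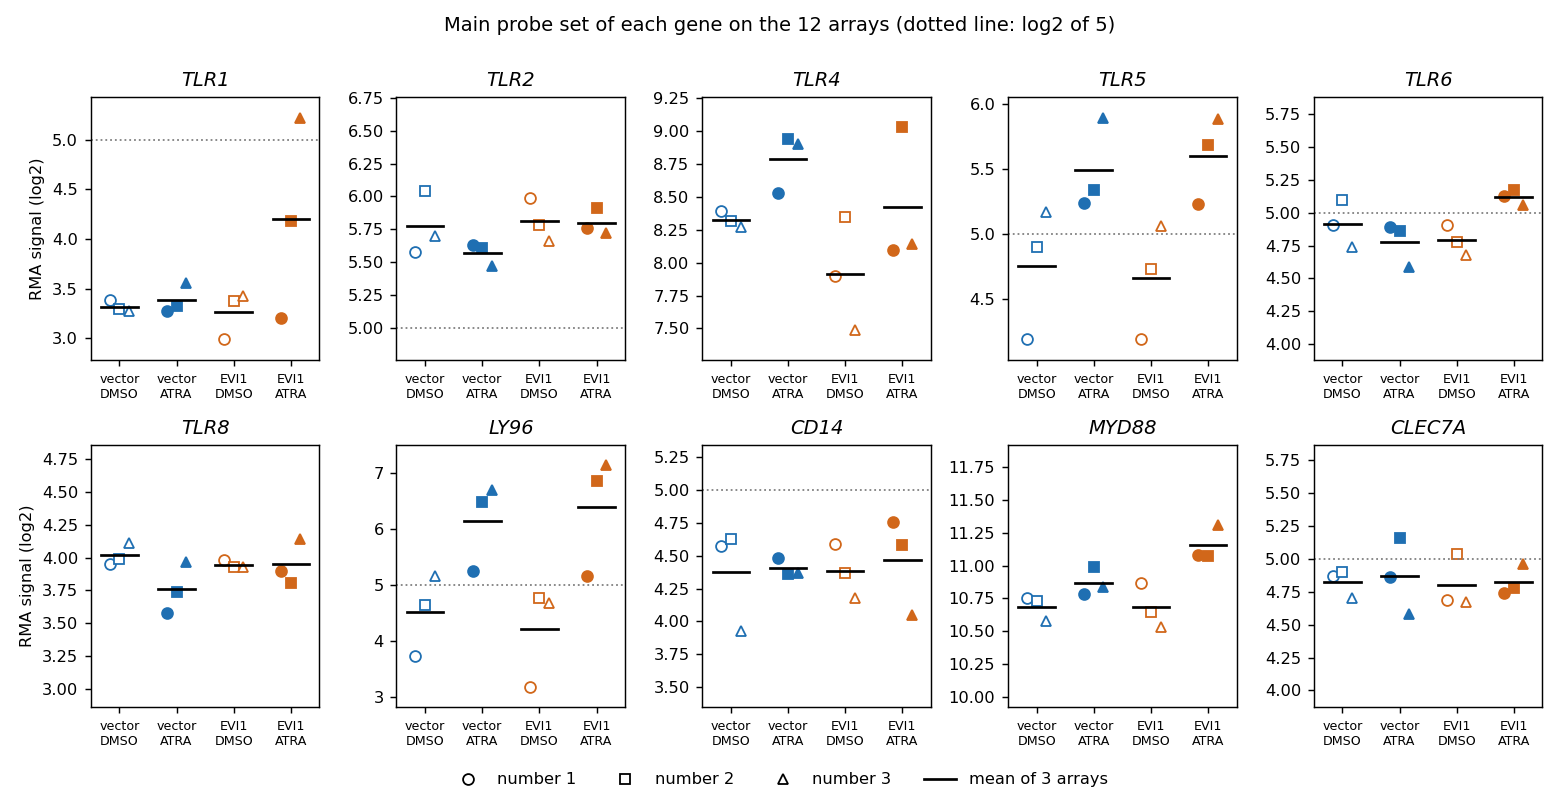
Log2 signal of the main probe set of each of the 10 genes on the 12 arrays, by group (horizontal axis); open symbols are DMSO, filled symbols ATRA, shapes the replicate numbers, and bars the means of 3 arrays. All 6 ATRA arrays of LY96 (5.16 to 7.13) reach 5, as do those of TLR5 (5.23 to 5.89), while CD14 and TLR8 stay under 5 on every array.

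LY96, the partner of TLR4 in lipopolysaccharide binding, had the largest difference of the 10 genes in both cell types. In vector cells it read 3.72, 4.64 and 5.16 under DMSO and 5.25, 6.47 and 6.70 under ATRA (replicate numbers 1, 2 and 3). In EVI1 cells it read 3.18, 4.76 and 4.67 under DMSO and 5.16, 6.86 and 7.13 under ATRA. The groups did not overlap in either cell type, and the arrays of number 1 were the lowest of each group. The rise in EVI1 cells was 2.18 ± 0.59 (SE, n = 3), or 4.53-fold, with a limma adjusted p of 0.0287. In vector cells the difference was 1.63 ± 0.59 (3.10-fold), which did not pass (adjusted p = 0.169) but did with the replicate block (limma adjusted p = 0.000174). Within a replicate number the differences were close to one another, 1.53, 1.83 and 1.54 in vector cells and 1.98, 2.10 and 2.46 in EVI1 cells. The difference between the cell types' responses was 0.55 with a 95% interval from -1.28 to 2.37 (interaction adjusted p = 0.998). That interval is from the fit without the block, where the SE was 0.84. With the replicate block the SE was 0.20, and the interaction was not called (blocked limma adjusted p = 0.346). LY96 stood below the lower quartile of the array on 2 of the 6 DMSO arrays, both of number 1, a range in which arrays can understate a difference. The call in EVI1 cells was lost without EVI1 DMSO array 1 (adjusted p = 0.117), EVI1 ATRA array 2 (0.103) or EVI1 ATRA array 3 (0.130).

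TLR4, the signalling chain of the lipopolysaccharide receptor, was not called in any comparison. Its main probe set read 8.39, 8.32 and 8.27 in vector DMSO and 8.53, 8.94 and 8.90 in vector ATRA. EVI1 cells spread more widely, with 7.90, 8.35 and 7.49 under DMSO and 8.10, 9.03 and 8.14 under ATRA. The vector groups did not overlap, whereas the EVI1 groups did, with number 2 the highest EVI1 array under both agents. The ATRA difference was 0.46 ± 0.25 in vector cells (limma adjusted p = 0.385) and 0.51 ± 0.25 in EVI1 cells (adjusted p = 0.210). All 6 within-number differences were positive, from 0.14 to 0.68. EVI1 means minus vector means were -0.41 under DMSO and -0.37 under ATRA, each with an SE of 0.25, and at number 2 the sign was the opposite (0.03 and 0.09).

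The spread among EVI1 arrays was also seen on the 3 further TLR4 probe sets. On all 4 probe sets number 2 was the highest EVI1 array under DMSO and under ATRA. The SD of EVI1 DMSO was 0.43 to 0.61 over the 4 probe sets, and that of vector DMSO was 0.06 to 0.26. The main probe set has the suffix x_at, by which the manufacturer marks probes that can also bind other transcripts. The TLR4 probe set with the second highest mean gave the widest ATRA difference in EVI1 cells, 0.84 ± 0.37, which was not called among all 41097 probe sets with a single symbol (limma adjusted p = 0.237) and was called with the replicate block (0.0167). The other pair differed by 0.28 and 0.35.

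**Figure D2:**
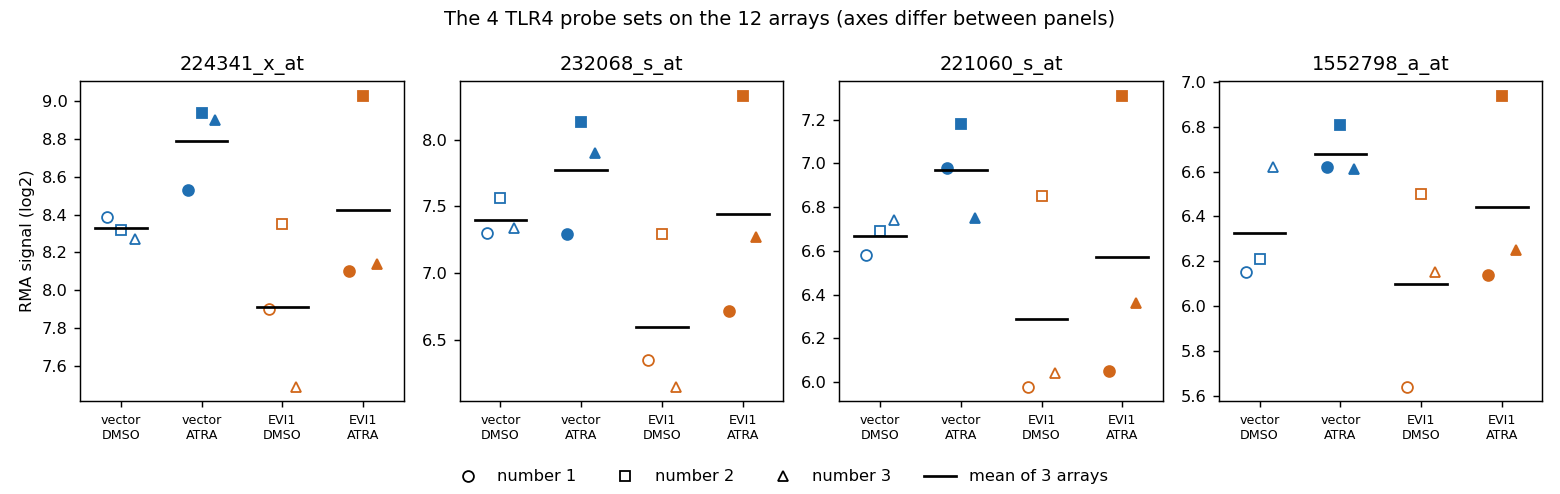
Log2 signal of the 4 TLR4 probe sets on the 12 arrays, by group, with symbols as shapes for replicate numbers and bars for means of 3 arrays; vertical axes differ between panels. In EVI1 cells number 2 is the highest array under both agents on each of the 4 probe sets (8.35 and 9.03 on the main one).

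CD14, the co-receptor that monocytes carry on their surface, stayed under the signal limit. Its only probe set ran from 3.93 to 4.76 over the 12 arrays, and no array reached 5. In vector cells it read 4.57, 4.63 and 3.93 with DMSO and 4.48, 4.36 and 4.37 with ATRA. In EVI1 cells it read 4.59, 4.37 and 4.18 with DMSO and 4.76, 4.58 and 4.05 with ATRA. All 4 groups overlapped. The ATRA difference was 0.03 in vector cells (95% interval -0.42 to 0.47) and 0.08 in EVI1 cells (-0.36 to 0.53), from the limma fit without a signal limit. These intervals hold no rise above 0.53, though signals in this range can understate one.

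TLR5, the flagellin receptor, rose in EVI1 cells at low signal, and it stood below the array median on 8 of the 12 arrays. It read 4.19, 4.90 and 5.17 in vector DMSO and 5.24, 5.34 and 5.89 in vector ATRA. In EVI1 cells the values were 4.19, 4.73 and 5.06 under DMSO and 5.23, 5.68 and 5.88 under ATRA. Every ATRA array stood above every DMSO array, also between the cell types, and number 3 was the highest and number 1 the lowest array of each group. The rise in EVI1 cells was 0.94 ± 0.29 (SE, n = 3), or 1.91-fold, with a limma adjusted p of 0.0473. In vector cells the difference was 0.74 ± 0.29 (adjusted p = 0.202), which passed with the replicate block (0.00142). The cell types' responses differed by 0.20 (95% interval -0.69 to 1.09 without the block). The SE of that difference was 0.41, and 0.15 with the block (blocked limma adjusted p = 0.577). The call in EVI1 cells is close to the threshold: it was lost when all genes were tested (adjusted p = 0.0553), and it held in 5 of the 12 fits that each left out 1 array, with adjusted p from 0.0240 to 0.183. It was lost without EVI1 DMSO array 1 (0.183) or 2 (0.0986), EVI1 ATRA array 2 (0.127) or 3 (0.182), vector DMSO array 2 (0.0635), or vector ATRA array 1 (0.0534) or 2 (0.0625).

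TLR2, the shared chain of the lipoprotein receptors, showed no difference that passed the test. Its arrays ran from 5.47 to 6.04, and vector cells averaged 5.77 ± 0.24 without and 5.57 ± 0.09 with ATRA (SD, n = 3). EVI1 cells averaged 5.81 ± 0.17 and 5.80 ± 0.10. Within replicate numbers the ATRA differences had mixed signs in both cell types, from -0.43 to 0.05 in vector and from -0.23 to 0.13 in EVI1 cells. Under ATRA the EVI1 arrays (5.76, 5.91 and 5.72) all stood above the vector arrays (5.63, 5.61 and 5.47). That difference was 0.23 ± 0.13 and did not pass the limma test (adjusted p = 0.372).

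TLR1 and TLR6 encode the chains that pair with TLR2, and they are neighbours on chromosome 4 next to TLR10. TLR1 lay below the lower quartile on 10 of the 12 arrays. It read 3.27, 3.32 and 3.56 in vector ATRA and 3.20, 4.18 and 5.22 in EVI1 ATRA, and between 2.99 and 3.42 on the 6 DMSO arrays. EVI1 ATRA arrays 2 and 3 thus stood above all other arrays, while array 1 did not. With no signal limit the ATRA difference in EVI1 cells was 0.94 ± 0.35 (limma adjusted p = 0.124, and 0.0366 with the replicate block), and 0.07 ± 0.35 in vector cells. TLR10 was between 3.30 and 4.20 on the 12 arrays and differed with ATRA by -0.08 in vector and -0.14 in EVI1 cells.

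TLR6 differed between groups by small amounts, and its main probe set was below the array median on all 12 arrays. In vector cells its main probe set read 4.91, 5.10 and 4.74 with DMSO and 4.89, 4.86 and 4.59 with ATRA. In EVI1 cells it read 4.91, 4.78 and 4.68 with DMSO and 5.13, 5.17 and 5.06 with ATRA. The EVI1 ATRA arrays lay above all arrays of vector ATRA and of EVI1 DMSO, and they supplied 3 of the 4 values of at least 5 through which the gene was tested. With ATRA it differed by -0.14 ± 0.12 in vector cells (limma adjusted p = 0.646) and by 0.33 ± 0.12 in EVI1 cells (adjusted p = 0.0900, blocked 0.00863). Under ATRA the EVI1 mean was above the vector mean by 0.34 ± 0.12 (adjusted p = 0.127, blocked 0.0123). The second probe set of TLR6 ran from 3.88 to 4.47 and differed with ATRA by 0.19 in vector and 0.12 in EVI1 cells, so the probe sets do not share a direction in vector cells.

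**Figure D3:**
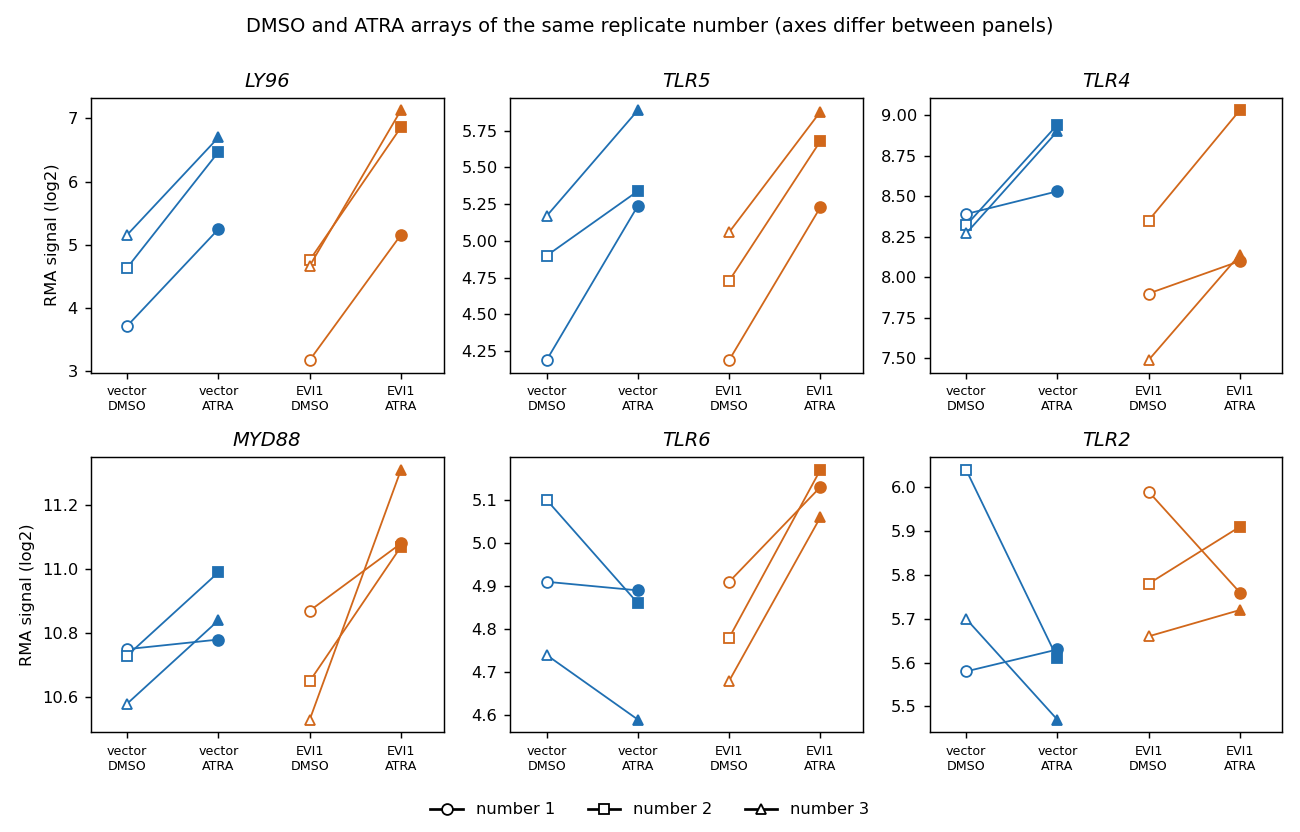
Log2 signal of 6 genes on DMSO (open) and ATRA (filled) arrays, with lines joining arrays of the same replicate number within vector and within EVI1 cells; vertical axes differ between panels. All 6 lines of LY96 and all 6 of TLR5 go up, by 1.53 to 2.46 and by 0.44 to 1.05, while those of TLR6 go down in vector (-0.24 to -0.02) and up in EVI1 cells (0.22 to 0.39).

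TLR8, the receptor of single-stranded RNA, stayed near the lower quartile of the arrays. Its main probe set ran from 3.58 to 4.14 and the second from 2.99 to 3.49. The main one read 3.58, 3.74 and 3.97 in vector ATRA against 3.95, 3.99 and 4.11 in vector DMSO, and the groups overlapped. For the main probe set the limma fit without a signal limit gave -0.25 ± 0.12 in vector cells (adjusted p = 0.387) and 0.0033 ± 0.12 in EVI1 cells (adjusted p = 0.995). The second probe set differed with ATRA by 0.16 in vector and 0.07 in EVI1 cells, so the probe sets do not share a direction in vector cells.

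MYD88, the adaptor downstream of most of these receptors, rose in EVI1 cells by a small amount. It read 10.75, 10.73 and 10.58 in vector DMSO and 10.78, 10.99 and 10.84 in vector ATRA. In EVI1 cells it read 10.87, 10.65 and 10.53 under DMSO and 11.08, 11.07 and 11.31 under ATRA. The EVI1 ATRA arrays stood above all 9 other arrays. The rise in EVI1 cells was 0.47 ± 0.12 (SE, n = 3), or 1.39-fold, with a limma adjusted p of 0.0202, and the difference in vector cells was 0.18 ± 0.12 (adjusted p = 0.478). Under ATRA the EVI1 mean was 0.28 ± 0.12 above the vector mean (adjusted p = 0.190), and under DMSO the means were 10.68 ± 0.17 and 10.69 ± 0.09 (SD). The interaction was 0.29 with a 95% interval from -0.08 to 0.65. The call in EVI1 cells was lost without EVI1 DMSO array 2 (adjusted p = 0.0686), EVI1 DMSO array 3 (0.0654) or EVI1 ATRA array 3 (0.0936), and without both DMSO arrays of number 3 (0.0751).

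CLEC7A, the β-glucan receptor, stayed at low signal on all 6 of its probe sets. The main one ran from 4.58 to 5.16, with group means between 4.80 and 4.87, and 2 of the 12 arrays reached 5. Of the other probe sets 4 stayed between 2.30 and 3.79, below the lower quartile on all arrays, and the one with the second highest mean ran from 3.59 to 4.57. The main probe set differed with ATRA by 0.04 in vector cells (95% interval -0.28 to 0.37) and by 0.03 in EVI1 cells (-0.30 to 0.35). On the CLEC7A probe set with the second highest mean the values were 4.06, 3.89 and 3.95 in EVI1 DMSO and 4.09, 4.57 and 4.23 in EVI1 ATRA, a difference of 0.33 ± 0.15 that did not pass among all probe sets (limma adjusted p = 0.248).

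Between EVI1 and vector cells none of the 6 tested genes passed the limma test. Under DMSO 0 were called (0 at an unadjusted p under 0.05, 0 with the replicate block), where 1.21% of tested genes were called, or 7.19% with the block, and the differences ran from -0.41 (TLR4) to 0.04 (TLR2). Under ATRA 0 were called where 5.61% of tested genes were. TLR6 and MYD88 had an unadjusted p under 0.05 there, and TLR6 was called with the block, where 13% of tested genes were higher and 25.3% were called. TLR2, TLR6 and MYD88 were the 3 genes whose EVI1 ATRA arrays all stood above the vector ATRA arrays, where 9.52% of all 19775 genes did so. For ATRA against DMSO the groups did not overlap, in the higher direction, for 4 of 10 genes in vector cells (TLR4, TLR5, LY96 and MYD88; 9.49% of all genes) and for 4 in EVI1 cells (TLR5, TLR6, LY96 and MYD88; 10.2%). Under DMSO no gene of the 10 separated EVI1 from vector cells (6.72% of all genes were higher and 5.66% lower). In the lower direction 0 of the 10 separated the groups, against 9.21% with ATRA in vector cells, 11.8% with ATRA in EVI1 cells and 8.09% between EVI1 and vector cells under ATRA. The interaction, which asks whether the ATRA response differed between the cell types, called 0 of the 6 genes with limma (unadjusted p under 0.05 for 1; blocked fit, 0), and 0% of all tested genes.

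**Figure D4:**
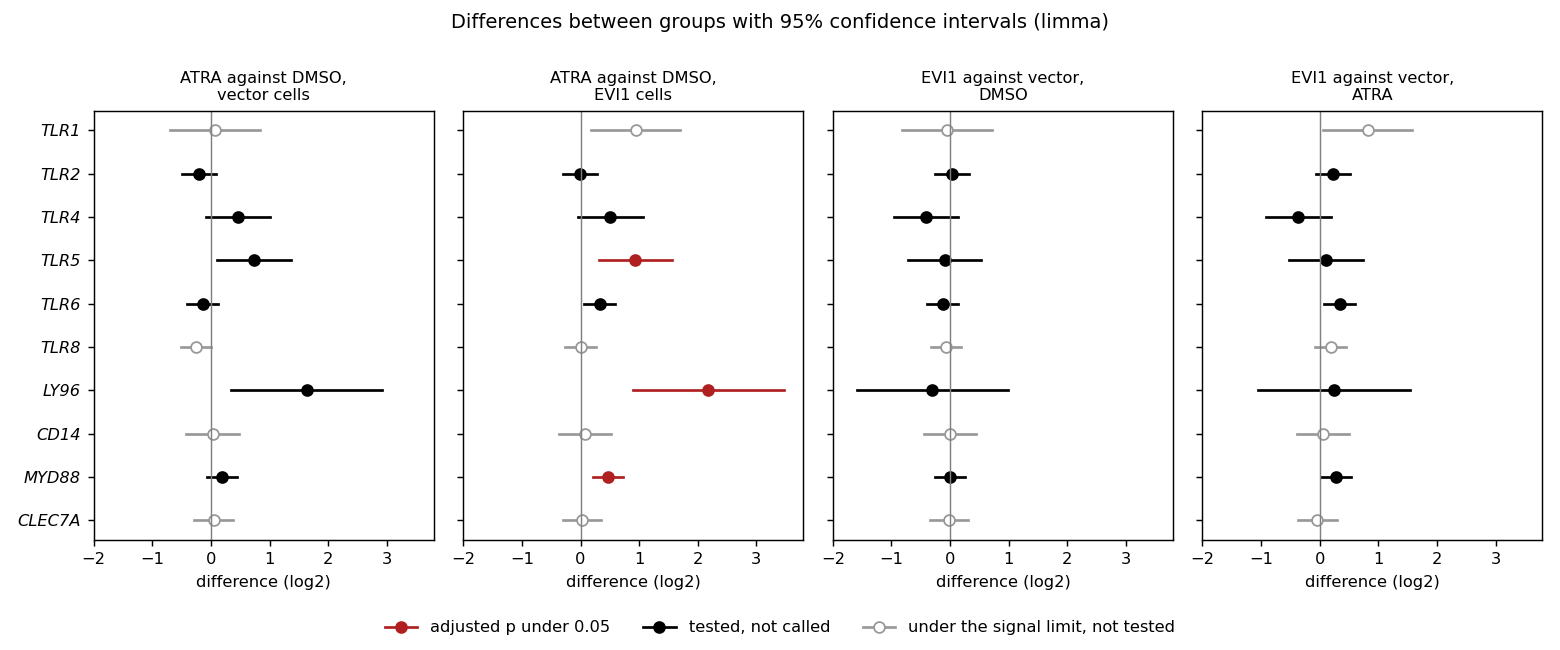
Log2 difference of each gene (points) with its 95% confidence interval from limma (lines) in 4 comparisons; red marks an adjusted p under 0.05, black a tested gene that was not called and grey a gene under the signal limit, fitted without it. LY96 (2.18), TLR5 (0.94) and MYD88 (0.47) are called in EVI1 cells with ATRA, and no gene is called between EVI1 and vector cells.

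The order of the group means differed between the genes, in part through small gaps (0.0033 between the DMSO groups of MYD88). For LY96, TLR5 and MYD88 it ran EVI1 ATRA, vector ATRA, vector DMSO, EVI1 DMSO. Both DMSO groups overlapped for the 3 genes, vector ATRA and vector DMSO did not, and EVI1 ATRA and vector ATRA overlapped for LY96 and TLR5 but not for MYD88. For TLR4 vector ATRA came first and EVI1 DMSO last, for TLR1, TLR6 and CD14 EVI1 ATRA came first, and for TLR2, TLR8 and CLEC7A the first were EVI1 DMSO, vector DMSO and vector ATRA. In these 7 genes every pair of neighbours in the order overlapped.

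The genes with the profile closest to each called gene were found by Pearson correlation over the 12 arrays, which share the ATRA and replicate structure. They were DCHS1 (r = 0.987), PPCS (0.980) and NEDD9 (0.980) for LY96, LCP2 (0.959), GALM (0.958) and DDX60L (0.957) for TLR5, and SSR2 (0.954), MAP3K5-AS2 (0.929) and NAT1 (0.926) for MYD88. DDX60L differed with ATRA by 1.49 in vector and 1.33 in EVI1 cells, and DCHS1 by 0.62 and 0.88.

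The wider pathway was read from a list of 69 other genes, also chosen with earlier results of these data known. Of the 69 genes 56 were tested, 8 were under the signal limit and 5 had no probe set of their own. In EVI1 cells ATRA raised 12 of the 56 and lowered 1, with a median of 0.045 against -0.023 over all tested genes, of which 7.45% rose and 7.66% fell. In vector cells it raised 1, SIGIRR, and lowered 0, where 2% of tested genes rose; with the replicate block 13 rose and 4 fell, where 9.96% rose and 10.1% fell. With the block in EVI1 cells 16 rose and 8 fell, where 16.3% rose and 19.4% fell. The interaction called 0 of the 56 with limma (unadjusted p under 0.05 for 1; blocked fit, 0).

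Among receptors, chaperones and adaptors no gene was called with ATRA in either cell type without the replicate block. TLR7 and TLR9, receptors of RNA and DNA in endosomes, differed by -0.21 and 0.03 in vector and by -0.17 and 0.05 in EVI1 cells. TLR3 (2.94 to 3.43 over the 12 arrays) and TLR10 were under the limit. Of 7 accessory and trafficking genes tested 0 passed limma in EVI1 cells, where 15.1% of tested genes were called (0 of 7 at an unadjusted p under 0.05). In the blocked fit 1 fell, UNC93B1 (-0.25, blocked limma adjusted p = 0.0355), where 19.4% of tested genes fell. In vector cells the blocked fit called 1 of the 7 higher, CNPY3 (0.41, limma adjusted p = 0.264, blocked 0.0148), where 9.96% of tested genes were higher. The bridging adaptor TIRAP differed by -0.01 and the TRIF adaptor TICAM1 by 0.18 in EVI1 cells.

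Of 16 kinases and ubiquitin ligases 4 rose and 1 fell with ATRA in EVI1 cells, where 7.45% of tested genes rose and 7.66% fell. With the replicate block 7 rose and 2 fell, where 16.3% of tested genes rose and 19.4% fell. MAP3K8, a kinase that links the receptors to ERK signalling, averaged 6.25 ± 0.82 (SD, n = 3) under DMSO and 8.62 ± 0.65 under ATRA, and its rise of 2.37 ± 0.46 (SE) had a limma adjusted p of 0.00662. In vector cells it differed by 1.76 ± 0.46 (adjusted p = 0.0597, blocked 0.000202). The kinases TBK1 and IKBKE, which act on interferon regulatory factors, rose by 0.50 and 0.49, and the ubiquitin ligase TRAF6, which acts directly downstream of IRAK kinases, by 0.36. TRAF3, a ligase of the interferon branch, fell from 9.01 ± 0.21 to 8.08 ± 0.44 (adjusted p = 0.0106). In vector cells TBK1 differed by 0.30, IKBKE by 0.40 and TRAF3 by -0.46, each called only with the block, and TRAF6 by -0.12.

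Of 10 inhibitors 4 rose and 0 fell in EVI1 cells, where 7.45% of tested genes rose and 7.66% fell. With the replicate block 4 rose and 2 fell, NFKBIA and RNF216, where 16.3% of tested genes rose and 19.4% fell. SIGIRR, a receptor that dampens signalling by interleukin 1 and Toll-like receptors, rose in both cell types, by 1.03 ± 0.24 in vector (limma adjusted p = 0.0380) and 1.21 ± 0.24 in EVI1 cells (0.00745). Its vector DMSO arrays (7.74 to 8.56) did not overlap with the vector ATRA arrays (8.89 to 9.31), and EVI1 ATRA ran from 9.61 to 9.75. CYLD, a deubiquitinase, rose by 0.77, TNFAIP3, which encodes the feedback inhibitor A20, by 0.53, and the IκB family member NFKBIE by 0.53. NFKBIA, which encodes IκBα, differed by -0.64 (limma adjusted p = 0.0561, blocked 0.000883), and the ubiquitin ligase RNF216 by -0.32 (0.0900, blocked 0.0433). In vector cells CYLD differed by 0.54, TNFAIP3 by 0.29 and NFKBIE by 0.43, each called only with the block. Of 7 NF-κB and IRF transcription factors 0 passed limma in EVI1 cells, where 15.1% of tested genes were called (unadjusted p under 0.05 for 1). In the blocked fit 1 of the 7 rose and 3 fell, where 16.3% of tested genes rose and 19.4% fell.

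The list of C-type lectin receptors and dectin-1 signalling held 8 tested genes, among them the receptors CLEC4D and CLEC4E. With ATRA 3 of the 8 rose in EVI1 cells and 0 fell, where 7.45% of tested genes rose and 7.66% fell. The blocked fit also called 3 higher and 0 lower, where 16.3% and 19.4% of tested genes were. FCER1G, the Fc receptor gamma chain, which serves C-type lectins other than dectin-1, rose from 8.94 ± 0.48 to 10.88 ± 0.83 (SD, n = 3), or 3.83-fold (limma adjusted p = 0.00409), PLCG2 by 0.84 and BCL10 by 0.60. In vector cells FCER1G differed by 1.35 (limma adjusted p = 0.0532, blocked 0.00364), PLCG2 by 0.57 (0.198, blocked 0.00713) and BCL10 by 0.23 (0.570), and the interaction called none of the 3 (adjusted p = 0.998 for each). SYK differed by 0.03 in EVI1 cells. Of 3 target cytokines tested IL1B rose in EVI1 cells, from 6.36 ± 0.42 to 7.66 ± 0.63 (in vector cells 0.63, adjusted p = 0.308, blocked 0.0410), while TNF differed by -0.05 and CXCL8 by 0.49 (adjusted p = 0.485). IL6 and IL12B were under the signal limit.

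Under ATRA 3 of the 56 pathway genes were higher in EVI1 than in vector cells and 1 was lower, where 3.28% and 2.33% of tested genes were. The kinase IRAK2, which acts with MYD88, stood at 9.27 ± 0.64 against 7.82 ± 0.43 (1.45 ± 0.28 SE; limma adjusted p = 0.0130). TAB2, a TAK1 adaptor, was higher by 0.65 and PRKCD, a kinase of the dectin-1 arm, by 0.63. With the mean over probe sets TAB2 was higher by 0.35 and not called (limma adjusted p = 0.0716). IKBKB, the IκB kinase β, was lower, with a difference of -0.74 ± 0.15 (adjusted p = 0.0157). Under DMSO limma called 0 of the 56 (8 at an unadjusted p under 0.05, as were 1379 of the 14080 tested genes). With the block 8 were higher and 1 lower, where 4.2% and 2.99% of tested genes were. Under ATRA 17 were higher and 4 lower with the block, where 13% and 12.3% of tested genes were.

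**Figure D5:**
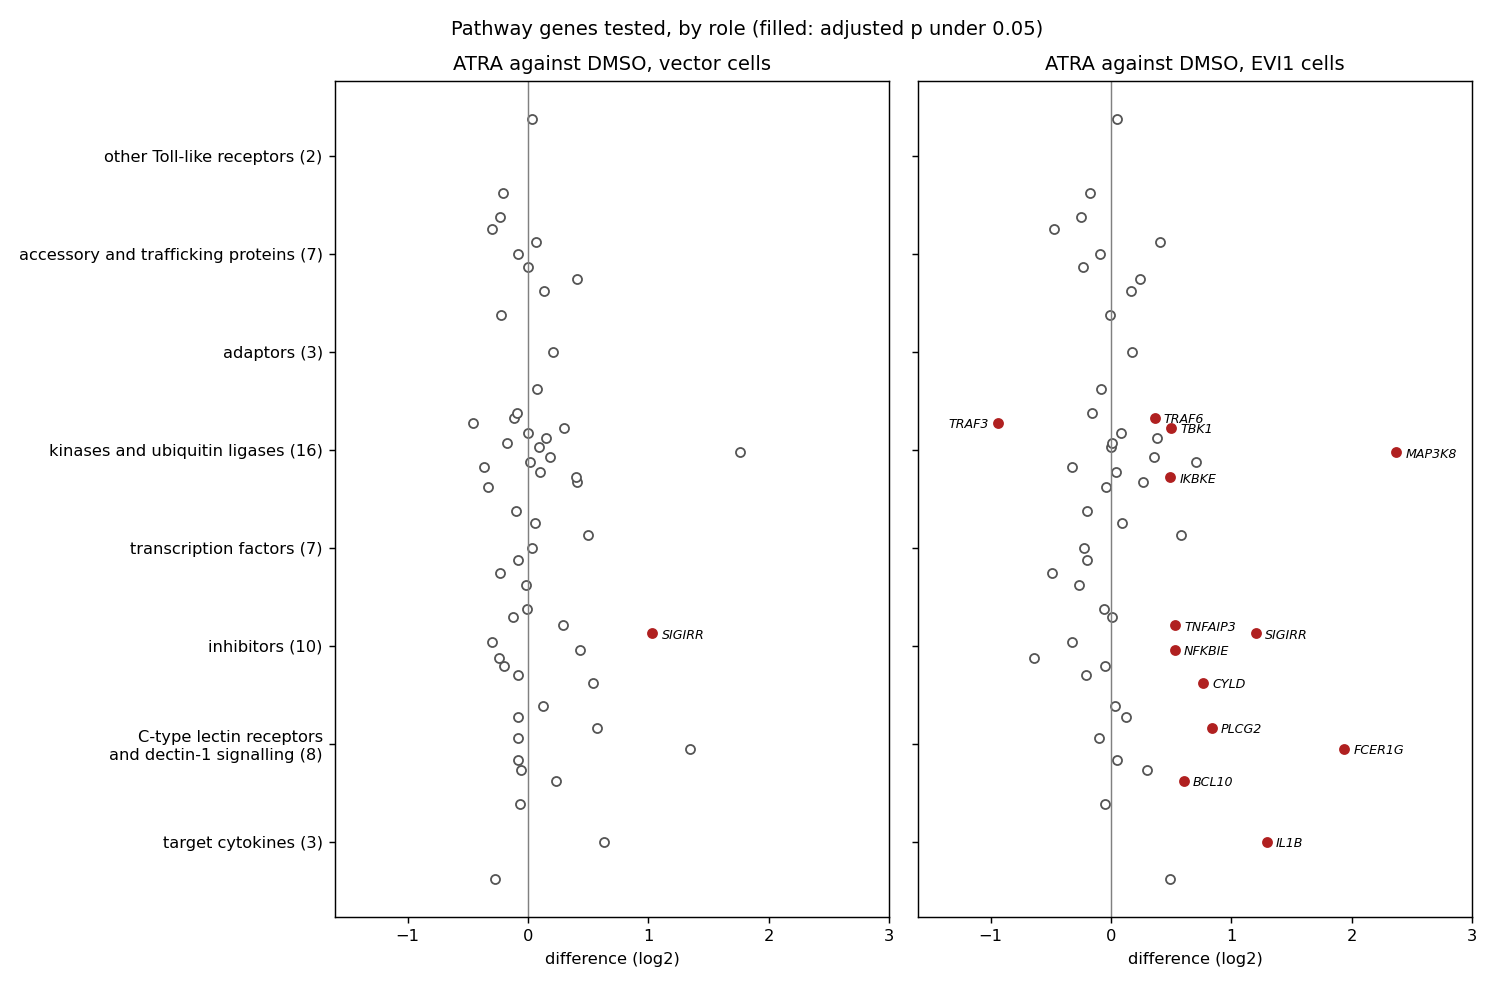
Log2 ATRA difference of the 56 tested pathway genes by role, in vector (left) and EVI1 cells (right), with the number tested in brackets; filled points have a limma adjusted p under 0.05. In EVI1 cells 12 genes are filled on the right of 0 and TRAF3 on the left, and in vector cells only SIGIRR is filled.

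Without the replicate block the pathway calls rest on few arrays, and the fits below have no block. With the block and all 12 arrays, each of the 13 genes called in EVI1 cells with ATRA was called. Their highest blocked limma adjusted p was 0.0159 (TRAF6), where 35.7% of tested genes were called. In EVI1 cells with ATRA, the calls of SIGIRR, FCER1G, MAP3K8, TNFAIP3 and TRAF3 held in all 12 fits that each left out 1 array. TNFAIP3 and TRAF3 held only narrowly, with limma adjusted p up to 0.0499 each. For SIGIRR it reached 0.0377, for MAP3K8 0.0339 and for FCER1G 0.0209. TRAF6 lost its call in all 12 (limma adjusted p from 0.0513 to 0.159), and also when all genes were tested (0.0569), with the mean over probe sets (0.0843), array weights (0.0642) or a trended robust fit (0.0531), and without both DMSO arrays of number 3 (0.0831). BCL10 held in 5 of 12 (adjusted p up to 0.171), and was lost with the mean over probe sets (a difference of 0.35, adjusted p = 0.0608), quantile normalization (0.0552) and without both DMSO arrays of number 3 (0.0561). IKBKE was also lost without those arrays (0.101). CYLD and IKBKE held in 8 of 12 (adjusted p up to 0.145 and 0.0976), PLCG2 and IL1B in 9 (up to 0.102 and 0.0719), and NFKBIE and TBK1 in 10 (up to 0.0786 and 0.0717). The count of 13 pathway genes fell to 8 without EVI1 DMSO array 1 or EVI1 ATRA array 2, and to 6 without EVI1 DMSO array 2 or EVI1 ATRA array 3. SIGIRR in vector cells held in 6 of 12 (adjusted p up to 0.162) and was lost without vector DMSO array 1 or 2, any vector ATRA array, or EVI1 ATRA array 2. Between EVI1 and vector cells under ATRA, the count of 4 was 1 without vector ATRA array 1 or EVI1 ATRA array 3, 2 without vector ATRA array 2 or 3 or EVI1 ATRA array 2, and 9 without EVI1 ATRA array 1. There IRAK2 held in 10 of 12 (adjusted p up to 0.0556), IKBKB in 9 (up to 0.0580) and TAB2 and PRKCD in 8 (up to 0.0711 and 0.132), and PRKCD was also lost without both DMSO arrays of number 3 (0.0616).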

How the data were processed

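Transcripts were measured on 12 Affymetrix 3′ expression arrays. The deposited values are log2 signals made by the authors; the submitters' processing notes name RMA and Affymetrix Expression Console 1.3; RMA settings are not given in the sources used here. RMA's between-array step assumes that most transcripts do not change. The array annotation gave 41097 of 54675 probe sets exactly 1 symbol. The probe set of highest mean stood for each gene, and the 14080 genes with a log2 of at least 5 on at least 3 arrays were tested in R 4.3.3 with limma 3.58.1 (lmFit, eBayes, group means, 8 residual degrees of freedom, no block), with Benjamini-Hochberg adjustment over all of them and calls at an adjusted p under 0.05. The fit without a block was run on simulated data drawn independently for each array. Such data hold no deviation shared by same-numbered arrays, so they cannot test the fit under it. The series calls the replicates biological; where cultures were not separate, p-values measure only the spread between arrays. Same-numbered arrays deviated together (r from 0.408 to 0.704), so the numbers were used as a block in an alternative fit. The labels do not state whether the numbers mark shared cultures. The named genes are the 10 genes, pathway genes called in a comparison, and the 3 closest profiles of each called gene; the fold changes are 2 to the power of the log2 difference. Pathway genes named without a call were chosen after their values were seen. Members and lists were chosen with earlier results of these data known. Array number limits precision.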

Additional observations from a re-analysis of the deposited data

Results flagged for a closer look

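TLR6 had ATRA differences of opposite sign in the cell types at every replicate number: -0.02, -0.24 and -0.15 in vector cells and 0.22, 0.39 and 0.38 in EVI1 cells. The test of the difference itself gave an interaction of 0.467 with an SE of 0.17 and a limma adjusted p of 0.998 over all tested genes (unadjusted 0.0185; blocked adjusted p = 0.346), so it fails the correction. The values lie between 4.59 and 5.17, and the second TLR6 probe set differed in the positive direction in both cell types (0.19 and 0.12).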

How the results depend on the processing

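Of 700 values of single genes of the group under alternatives, 671 kept their side of the threshold, 15 lost a call, 14 gained one and 0 changed sign where called. With the replicate block the genes called of the group were 2 with ATRA in vector cells and 1 between EVI1 and vector cells under ATRA, against 0 and 0 without it; besides LY96, TLR5 and TLR6 it changed no other call of a tested gene of the group. The same counts, 2 and 1, came from the block without the signal limit and from array weights, and both called 5 genes with ATRA in EVI1 cells, against 3; array weights added TLR4 (0.85, limma adjusted p = 0.0206) and TLR6, and the block without the limit added TLR1 and TLR6. The block without the limit and the fit without both DMSO arrays of number 3 were added after seeing the data.

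For the pathway genes the block called 17 with ATRA in vector cells, 24 in EVI1 cells, 9 between EVI1 and vector cells under DMSO and 21 under ATRA, against 1, 13, 0 and 4. The block without the signal limit called 16, 22, 5 and 19. Array weights called 8 in vector cells, 1 under DMSO and 15 under ATRA. In vector cells a limit of log2 6, the mean over probe sets, a trended robust fit and the fit without both DMSO arrays of number 3 each called 2. Under DMSO the mean over probe sets and quantile normalization each called 1. The cause of these changes was not tested.

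Over the fits that each left out 1 array, the group's count ran from 0 to 3 with ATRA in EVI1 cells and was 0 to 0 in the other comparisons. The pathway count ran from 0 to 3 in vector cells, 6 to 16 in EVI1 cells, 0 to 0 under DMSO, 1 to 9 under ATRA and 0 to 0 for the interaction. Low signal limits what can be read for TLR1, TLR5, TLR6, TLR8, CD14, CLEC7A and the DMSO arrays of LY96.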
